A study of Mus musculus with 6 samples.

Results

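The 10 genes described here encode the core of the transcription factor AP-1 and its closest companions in the immediate early response, namely *Fos*, *Fosb*, *Fosl1* and *Fosl2* of the FOS family, *Jun*, *Junb* and *Jund* of the JUN family, and *Atf3*, *Egr1* and *Ier2*. They were chosen by name from 21938 protein-coding genes. All peaks overlapping the body of one of these genes or the 10 kb to either side of it were taken, which gave 285 peaks over 6 libraries. These peaks merged into 62 of the 169872 regions of open chromatin found in the whole series. Open chromatin was mapped with Omni-ATAC-Seq, in which Tn5 transposase inserts sequencing adaptors into accessible DNA, in 50000 nuclei per library from whole mouse hearts at postnatal day 1 (P1). All nuclei were first passed through a 2.2 M sucrose cushion. According to the paper, this cushion leaves almost only cardiomyocyte nuclei. The paper chose it here to keep peaks of other cell types out of the Nkx2-5 map. The Input group was wildtype hearts with no further selection. The PCM1 group was wildtype (WT) hearts whose nuclei were captured by magnet-assisted nuclear immunoprecipitation (MAN-IP) with an antibody to PCM1, a protein found around the nuclei of cardiomyocytes (CMs). The Myc group came from hearts of the genotype Nkx2-5 Cre/+; R26RSun1-Myc-Egfp/+, in which the Nkx2-5 Cre puts a tagged nuclear envelope protein into descendants of cardiac progenitors that form CMs and also smooth muscle and endothelial cells, and its nuclei were captured by MAN-IP with a Myc antibody. Each group had 2 independent biological replicates. Genotype and antibody cannot be told apart in the comparison of Myc with the other groups.

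AP-1 is a dimer of basic leucine zipper proteins. JUN proteins pair with each other or with FOS proteins and bind a short palindromic motif, whereas FOS proteins need a JUN partner. ATF3 is a stress-induced zipper protein that can pair with JUN proteins and often represses, EGR1 is a zinc finger factor, and IER2 is a small nuclear protein. Immediate early genes are transcribed within minutes of a growth factor, stretch or stress signal without new protein synthesis. At *Fos* and *Egr1* the signal is read by serum response factor (SRF) on CArG boxes with its partners of the ELK and MKL families. In the heart these genes are known for their fast response to load and to tissue handling. Open chromatin is not transcription, and no histone mark was measured. Regions away from the transcription starts of protein-coding genes are therefore called non-promoter regions and not enhancers. Some of them lie at the start of another transcript.

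The sequences below are the *Fos* promoter and 5 windows around other summits that carry the comparisons described later. All are from GRCm38.p6, the assembly also called mm10, and are written 5′ to 3′ on the strand of the gene. Each region is named by the distance of its summit from the 5′ end of the gene, negative upstream. Capitals mark a CArG box (searched under that name), an AP-1 motif (TGANTCA) or a TATA box (TATAAA), each searched on both strands. The *Fos* promoter stretch spans chr12:85473570-85473869. The others are the 201 bp around the summit, at chr12:85485974-85486174 for *Fos* 12.2 kb, chr7:19320018-19320218 for *Fosb* −10.1 kb, chr7:19310275-19310475 for *Fosb* −0.3 kb, chr8:84980001-84980201 for *Junb* −1.4 kb and chr1:191224342-191224542 for *Atf3* −6.4 kb.
Fos promoter: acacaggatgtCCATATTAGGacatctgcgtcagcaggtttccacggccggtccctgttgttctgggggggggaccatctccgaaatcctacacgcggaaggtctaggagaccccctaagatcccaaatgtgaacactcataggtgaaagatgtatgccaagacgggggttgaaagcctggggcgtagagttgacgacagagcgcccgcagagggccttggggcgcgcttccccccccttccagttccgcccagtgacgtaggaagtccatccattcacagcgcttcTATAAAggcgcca
Fos 12.2 kb: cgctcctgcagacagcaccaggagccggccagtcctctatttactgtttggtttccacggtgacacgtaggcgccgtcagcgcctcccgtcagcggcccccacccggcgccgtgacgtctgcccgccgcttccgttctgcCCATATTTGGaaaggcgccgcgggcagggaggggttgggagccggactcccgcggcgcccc
Fosb -10.1 kb: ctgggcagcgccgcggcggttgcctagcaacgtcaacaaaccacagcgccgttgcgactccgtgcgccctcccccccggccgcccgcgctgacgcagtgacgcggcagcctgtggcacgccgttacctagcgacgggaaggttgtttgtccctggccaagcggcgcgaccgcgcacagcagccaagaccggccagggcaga
Fosb -0.3 kb: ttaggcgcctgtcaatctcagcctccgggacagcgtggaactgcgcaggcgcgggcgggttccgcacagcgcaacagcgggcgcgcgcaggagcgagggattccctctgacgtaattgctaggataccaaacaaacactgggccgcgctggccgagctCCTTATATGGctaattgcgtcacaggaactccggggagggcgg
Junb -1.4 kb: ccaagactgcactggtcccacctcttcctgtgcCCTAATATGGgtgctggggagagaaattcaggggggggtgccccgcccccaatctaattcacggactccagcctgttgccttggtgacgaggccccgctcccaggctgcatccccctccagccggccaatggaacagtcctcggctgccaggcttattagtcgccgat
Atf3 -6.4 kb: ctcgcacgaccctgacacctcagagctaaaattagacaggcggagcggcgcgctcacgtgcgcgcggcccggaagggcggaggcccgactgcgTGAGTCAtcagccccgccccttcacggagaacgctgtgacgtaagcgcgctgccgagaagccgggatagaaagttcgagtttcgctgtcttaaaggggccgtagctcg
The *Fos* promoter stretch, shown because it holds the known serum response element, had a CArG box at −309 bp and a TATA box at −33 bp from the 5′ end of the gene. The *Fos* 12.2 kb region is shown because it lies downstream of the gene and also held a CArG box. The *Fosb* −0.3 kb and *Junb* −1.4 kb windows held 1 CArG box each. The *Fosb* −10.1 kb window is shown because it had the smallest adjusted p of these genes between groups, and it held neither a CArG box nor an AP-1 motif. The *Atf3* −6.4 kb window held an AP-1 motif 7 bp from its summit.

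The libraries differed in depth and in the summit pileup at CM marker promoters. The peak lists held 131500 and 75336 peaks for Input, 107216 and 108513 for Myc, and 83139 and 81487 for PCM1, and the deepest library (Input replicate 1) was 4.39 times as deep as the shallowest. The absence of a peak therefore means only that none was called at that depth. The promoters of all 6 CM markers (*Myh6*, *Tnnt2*, *Actc1*, *Nppa*, *Ryr2* and *Tnni3*) had peaks in all 6 libraries. Their summed normalised summit pileup, the number of extended reads stacked at the top of a peak after scaling between libraries, was 1452 and 1549 for Input, 861 and 982 for Myc, and 1823 and 1789 for PCM1. Sums for 5 fibroblast markers lay between 194 and 234 in Input and PCM1 and were 303 and 290 in Myc, and sums for 6 endothelial markers lay between 270 and 371 in all 6 libraries. Smooth muscle sums, over the 4 markers of 6 that could be compared, lay between 200 and 254 and epicardial sums between 166 and 232. None of 6 immune markers had a promoter peak in all 6 libraries and 5 had none in any. In such bulk samples, fewer nuclei with an open site and a less open site in every nucleus cannot be told apart.

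Open promoters were the rule among the 10 genes. A promoter was taken as 1 kb to either side of any annotated transcript start of the gene. All genes but *Fosl1* (9 of 10) had a promoter peak in all 6 libraries, as had 61.1% of all protein-coding genes. Peaks were ranked within each library by the authors' −log10 q-value, so that a percentile of 100 is the strongest peak of the library and 0 stands for no peak. The median of the 10 genes was 95 ± 1.91 (SD, n = 2) for Input, 96.1 ± 0.507 for Myc, and 92.6 ± 1.19 for PCM1. The same group means of the median over all protein-coding genes were 76.1, 81.6 and 67.7. The group means were highest in Myc and lowest in PCM1 for the 10 genes as for all genes, and the Input values of the 10 genes (96.3 and 93.6) overlapped those of Myc (95.7 and 96.4). With peaks ranked by fold, the group mean of the 10 genes was highest in Input at 78.3, with Myc at 72.0 and PCM1 still lowest at 69.5. Between 4 and 6 of the 10 genes stood at or above the 95th percentile in a library, beside 15.9 to 26.0% of all genes.

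**Figure D1:**
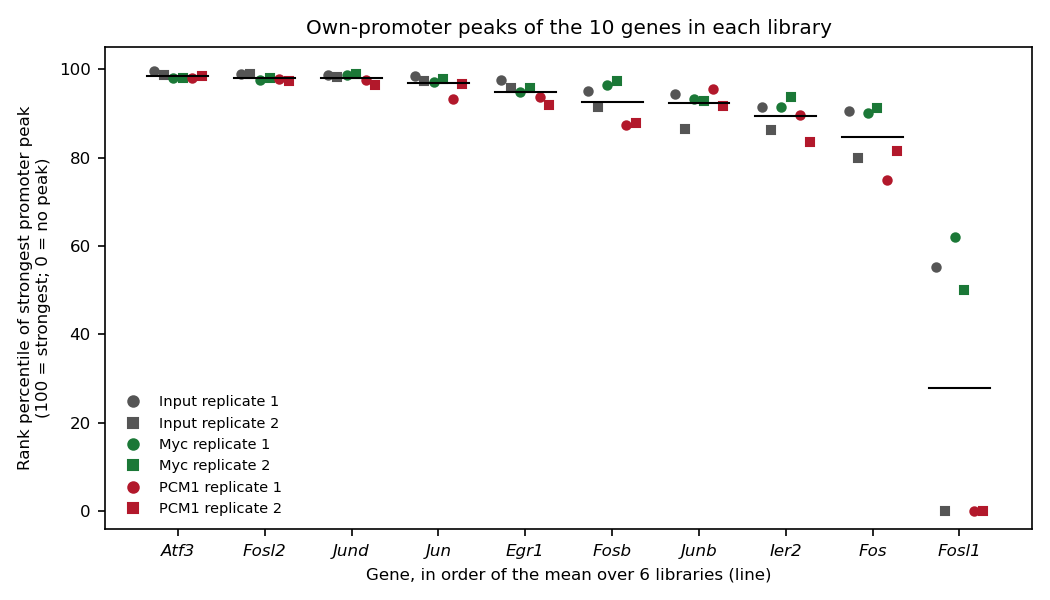
Rank percentile of the strongest promoter peak of each of the 10 genes (vertical axis, 100 is the strongest peak of a library and 0 is no peak) in each of the 6 libraries (points), with a line at the mean over the libraries. Atf3, Fosl2 and Jund lie between 96.3 and 99.5 in every library, and Fosl1 is at 0 in 3 libraries.

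*Atf3* had the highest mean promoter rank. Its 6 values were 99.5 and 98.7 for Input, 97.9 and 98.0 for Myc, and 97.9 and 98.5 for PCM1 (mean 98.4 ± 0.6, SD, n = 6 libraries). *Fosl2*, a FOS family member with a role in fibrosis, followed with 98.9 and 99.0, 97.5 and 97.9, and 97.7 and 97.2 in the same order (98.0 ± 0.7). *Jund*, the JUN gene that is expressed most evenly in resting cells, had 98.6 and 98.2, 98.7 and 98.8, and 97.5 and 96.3 (98.0 ± 1.0). These genes all stayed between 96.3 and 99.5. *Jun* had 98.4 and 97.4 for Input, 97.0 and 97.8 for Myc, and 93.3 and 96.6 for PCM1 (96.8 ± 1.8). *Egr1* had 97.6 and 95.7, 94.9 and 95.7, and 93.6 and 91.8 (94.9 ± 2.0). *Fosb* had 95.1 and 91.5, 96.5 and 97.2, and 87.4 and 87.9 (92.6 ± 4.3). Among these, *Fosb* had the widest gap between groups, with Myc on top and PCM1 at the bottom.

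*Junb*, a JUN gene that can restrain JUN, had 94.3 and 86.4 for Input, 93.3 and 92.7 for Myc, and 95.6 and 91.7 for PCM1 (92.3 ± 3.2). In every library but Myc replicate 1 this was the peak at 2.0 kb and not the one at its 5′ end. *Ier2* had 91.4 and 86.3, 91.5 and 93.6, and 89.7 and 83.5 (89.3 ± 3.7). *Fos*, the prototype of the class, was last but *Fosl1* with 90.6 and 79.8, 90.1 and 91.3, and 74.9 and 81.5 (84.7 ± 6.9), and 59.1% of protein-coding genes had a lower mean rank. *Fosl1*, which encodes FRA-1 and is known from proliferating and invasive cells, was at 55.3 in Input replicate 1 and 62.0 and 50.1 in Myc, with no promoter peak in Input replicate 2 or in either PCM1 library. The *Fosl1* promoter was thus the one that was weak throughout. None of the 9 neighbouring pairs in this order was called after adjustment (two-sided exact sign-flip permutation test, n = 6 libraries, smallest Benjamini-Hochberg adjusted p = 0.14). The smallest p that 6 libraries allow cannot pass adjustment over 9 pairs for a single pair, however wide its gap. The test therefore does not show that neighbours are equal. *Ier2* over *Fos* and *Fos* over *Fosl1* held in 6 of 6 libraries, with the smallest p that 6 libraries allow (0.0312 by exact permutation), and no other pair was below 0.05 before adjustment.

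The ranks of the groups overlapped for some of the genes and not for others. Both Input libraries ranked above the other 4 at *Fosl2*, *Atf3* and *Egr1* (3 of 10, against 4.94% of the genes with a promoter peak in any library). Both Myc libraries ranked above the other 4 at *Fosb*, *Jund* and *Ier2*, where 27.3% of those genes did, and both PCM1 libraries ranked below the other 4 at *Fosb*, *Jun*, *Jund* and *Egr1*, where 30.1% did. The counts for Myc and PCM1 were close to these shares. With 2 libraries set against 4, the smallest one-sided p of an exact permutation is 0.0667, so these are given as counts only.

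Of the 62 regions, 20 lay at a promoter of the gene itself, 7 at the promoter of a neighbouring protein-coding gene and 35 at no such promoter. A peak in all 6 libraries was found for 34 of the 62, where 28.8% of all merged regions had one. For the 35 non-promoter regions it was 14, where the share was 23.3% of all non-promoter regions. A non-promoter region of this kind lay within 10 kb of 8 of the 10 genes (all but *Fosl1* and *Jun*), compared with 45.9% of all protein-coding genes. At *Jund* (1.8 kb) and *Atf3* (−6.4 kb) the only such region lay at a start of *Gm11175* or *D730003I15Rik*, which are not protein-coding genes. The 10 genes are short, with a median length of 4.7 kb against 17.4 kb for all genes, and had a median of 7 regions against 4. At the other end, 10 of 62 regions had a peak in a single library (30.4% of all regions), 7 of them in the deepest library, Input replicate 1.

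Peaks in both libraries of 1 group and in no other library were found at 3 of 62 regions, where 3.18% of all merged regions had this pattern. These were a region in the UTR of *Fosl2* at 0.6 kb in Myc with summit pileups of 80 and 84, a region at *Jund* 11.6 kb in Myc with pileups of 14 and 10 over a coding exon of *Iqcn*, and a region at *Jund* −2.3 kb in Input with pileups of 240 and 69. With either Myc library left out the count is 1, because Myc then has no pair of libraries and its regions are not counted.

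**Figure D2:**
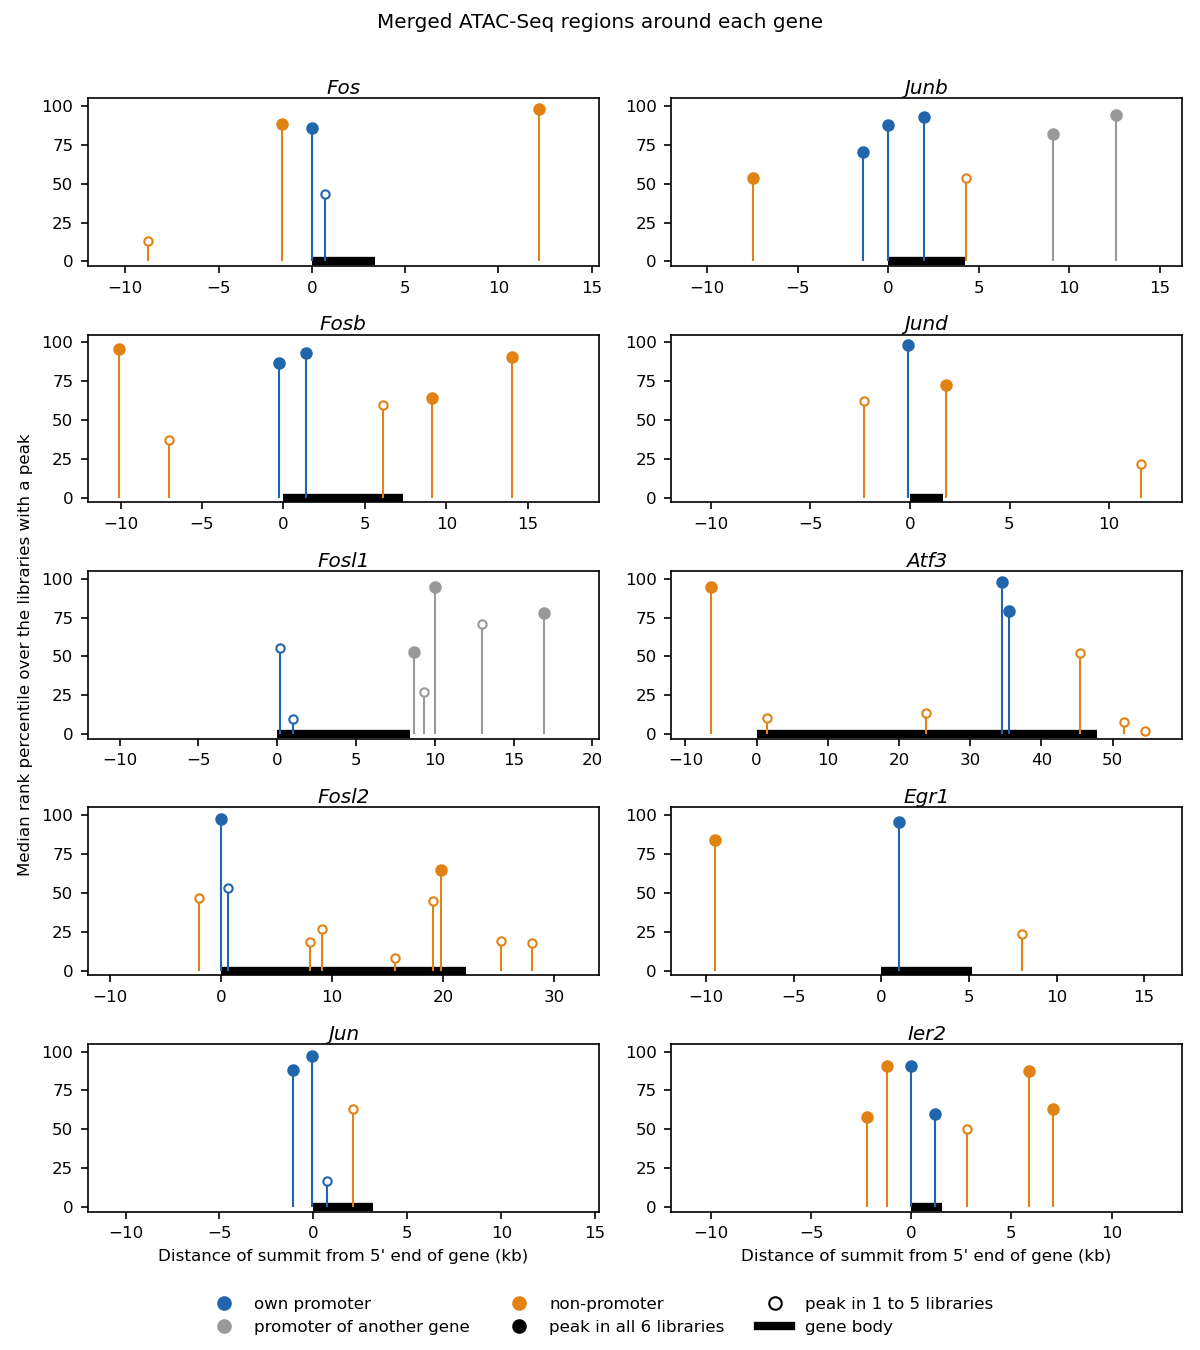
Merged regions around each of the 10 genes by distance of the summit from the 5′ end of the gene in kb (horizontal axis) and median rank percentile over the libraries with a peak (vertical axis). Fosl2 and Atf3 have weak regions spread over their gene bodies, and Ier2 and Junb have 6 regions each with a peak in all 6 libraries.

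Within the FOS family the regions were arranged differently from gene to gene. *Fos* (chr12:85473890-85477273, plus strand) had 5 regions, 3 of them with a peak in all 6 libraries, at −1.6 kb, over its 5′ end and at 12.2 kb. The intergenic region at 12.2 kb ranked above the *Fos* promoter in every library, at 98.0 and 97.6 for Input, 98.0 and 98.3 for Myc, and 95.7 and 94.0 for PCM1. Its summit pileups were 591 and 178, 233 and 249, and 117 and 104, beside 310 and 65, 130 and 146, and 51 and 61 at the promoter. Summit pileups in the description of each gene are before scaling and follow the depth of the library, so they compare regions within a library only. *Fosb* (chr7:19302696-19310051, minus strand) had 7 regions, 5 of them in all 6 libraries. Its strongest promoter region lay in an intron at 1.4 kb, near the start of a shorter transcript, with pileups of 422 and 114, 225 and 246, and 76 and 75. The intergenic region at −10.1 kb was as prominent, with pileups of 428 and 129, 234 and 198, and 63 and 65.

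*Fosl2* (chr5:32135801-32157842, plus strand) had the most regions, 10, but only its promoter and a region in its UTR at 19.8 kb had a peak in all 6 libraries. The promoter pileups were 916 and 299 for Input, 306 and 327 for Myc, and 204 and 195 for PCM1, and those at 19.8 kb were 79 and 24, 17 and 25, and 30 and 48. *Fosl1* (chr19:5447547-5455946, plus strand) had a promoter peak in 3 libraries with pileups of 47, 31 and 25. All 3 regions in its window with a peak in all 6 libraries lay at the promoters of its neighbours *Ccdc85b* and *Fibp*. No region at a promoter of *Fosl1* itself was shared by all libraries.

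In the JUN family, *Jun* (chr4:95049034-95052222, minus strand) had 4 regions and no non-promoter region shared by all libraries. Its main region at −0.1 kb, which also covers the start of the antisense transcript *Junos*, had pileups of 892 and 243 for Input, 312 and 351 for Myc, and 155 and 189 for PCM1. *Junb* (chr8:84974484-84978718, minus strand) had 7 regions with 6 shared by all libraries, of which 3 were its own promoters at −1.4 kb, at its 5′ end and at 2.0 kb. The *Junb* region at −7.5 kb held 3 AP-1 motifs and had pileups of 129 and 44, 63 and 56, and 30 and 29. *Jund* (chr8:70698949-70700616, plus strand) had 1 wide promoter region of 1289 bp with pileups of 945 and 281, 371 and 390, and 224 and 203, and a region at 1.8 kb over its 3′ end. By mean rank over the 6 libraries, *Junb* had the weakest promoter of the 3 JUN genes. In PCM1 replicate 1 its region at 2.0 kb ranked above *Jun* (95.6 and 93.3), while the region at its 5′ end ranked 84.2.

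*Atf3* (chr1:191170296-191218039, minus strand) is the longest of the 10 genes. Its strongest region was an internal promoter 34.5 kb into the gene record, with pileups of 1006 and 258 for Input, 288 and 303 for Myc, and 196 and 218 for PCM1. No region was found over the 5′ end of the gene record itself, and the region nearest to it, 1.5 kb into the gene, reached at most 15. A region at −6.4 kb, at the start of the lincRNA *D730003I15Rik*, had pileups of 389 and 95, 207 and 201, and 95 and 60. *Ier2* (chr8:84661331-84662852, minus strand) had 7 regions for a gene of 1522 bp, 6 of them in all libraries, of which the promoter and a region at −1.2 kb had the highest pileups. The promoter had 395 and 109 for Input, 181 and 214 for Myc, and 120 and 93 for PCM1, and the region at −1.2 kb, near the lincRNA *Gm26664*, had 434 and 126, 207 and 185, and 116 and 112, the higher of the pair in 4 of 6 libraries. *Egr1* (chromosome 18, 34859823 to 34864984, plus strand) had a single promoter region 1612 bp wide, with pileups of 699 and 190, 228 and 246, and 141 and 128, and a further shared region at −9.5 kb.

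CArG boxes were found in 5 of the 20 own-promoter regions (25.0%), belonging to *Fos*, *Fosb*, *Junb* (at −1.4 and 2.0 kb) and *Egr1*, and in 2.6% of all 24632 promoter regions of similar median length (667 and 687 bp). Among non-promoter regions it was 2 of 35, at *Fos* 12.2 kb and *Fosl2* 28.0 kb, and 2.28% of all 145240. AP-1 motifs were found in 6 of the 20 own-promoter regions (30.0%) and in 12.5% of all promoter regions, and in 6 of the 35 non-promoter regions (17.1%) beside 16% of all such regions, whose median lengths were 502 and 357 bp. In equal windows of 201 bp around the summit it was 8.57% of the 35 beside 9.53% of all. The cyclic AMP response element (CRE, TGACGTCA) was found in the promoters of *Jund* and *Ier2*, which is 2 of the 20 beside 2.9% of all promoter regions. The EGR motif (GCGGGGGCG), which can overlap a GC box, was in 4 of 20 beside 7.95% of all promoter regions, the TATA box in 5 (25.0% beside 13%) and the GC box (GGGCGG) in 18, beside 57.5% of all. The TATA boxes at *Fos* −33 bp and *Junb* −30 bp were on the strand of the gene. Those at *Fos* 778 bp, *Fosb* 113 bp and *Jun* −923 bp were on the opposite strand. These matches describe letters and are not bound sites.

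The comparison of PCM1 with Myc sets wildtype nuclei captured with the PCM1 antibody against tagged nuclei of another genotype captured with the Myc antibody. It could be tested at 34 regions of the 10 genes, those with a peak in all 6 libraries, out of 48857 such regions in the fit. At *Fosb* all 5 such regions were lower in PCM1, by 1.71- to 2.06-fold in summit pileup, of which the region at −10.1 kb was also called on the deposited fold over local background. The *Fosb* region at 6.1 kb had no peak in Myc replicate 2 and so was not in the fit. Its rank percentiles were 64.8 and 46.7 for Input, 54.6 in Myc replicate 1, and 69.9 and 59.5 for PCM1. The *Fos* promoter was 1.49-fold lower and the region at 12.2 kb 1.39-fold lower. In all, 13 regions were lower and 3 were higher at an adjusted p below 0.05 (limma on the normalised log2 summit pileup, Benjamini-Hochberg over 48857 regions), where 14.8% of all regions were lower and 14.1% higher. The median difference was −0.228 over the 34 regions and 0.004 over all regions. Over the 34 it was −0.081 without PCM1 replicate 2, which left 8 regions lower, and −0.041 with the deposited fold. Promoters as a class moved the same way, with 30.2% of 15003 promoter regions lower, 10.2% higher and a median of −0.2, while 7.93% of 33854 non-promoter regions were lower and 15.9% higher. Of the 15 own-promoter regions in the fit, 7 were lower and 0 higher, and of the 14 non-promoter regions 5 were lower and 2 higher. CM marker promoters went the other way, with 4 of 6 higher in PCM1, for example *Myh6* by 1.43 on the log2 scale. Fibroblast marker promoters were lower in PCM1 at 2 of 5 (*Dcn* by −0.83 and *Col1a1* by −0.56, list median −0.56), with 0 higher. Endothelial ones were lower at 2 of 6 (*Tek* by −0.97 and *Kdr* by −0.75, list median −0.36), with 0 higher. The other endothelial markers were not called, at −0.7 for *Emcn*, −0.02 for *Cdh5*, 0.17 for *Tie1* and 0.38 for *Pecam1*. Smooth muscle and epicardial promoters were lower at 1 of 4 each and higher at 0, with list medians of 0.18 and −0.17. The part of cell content in the results was not tested.

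**Figure D3:**
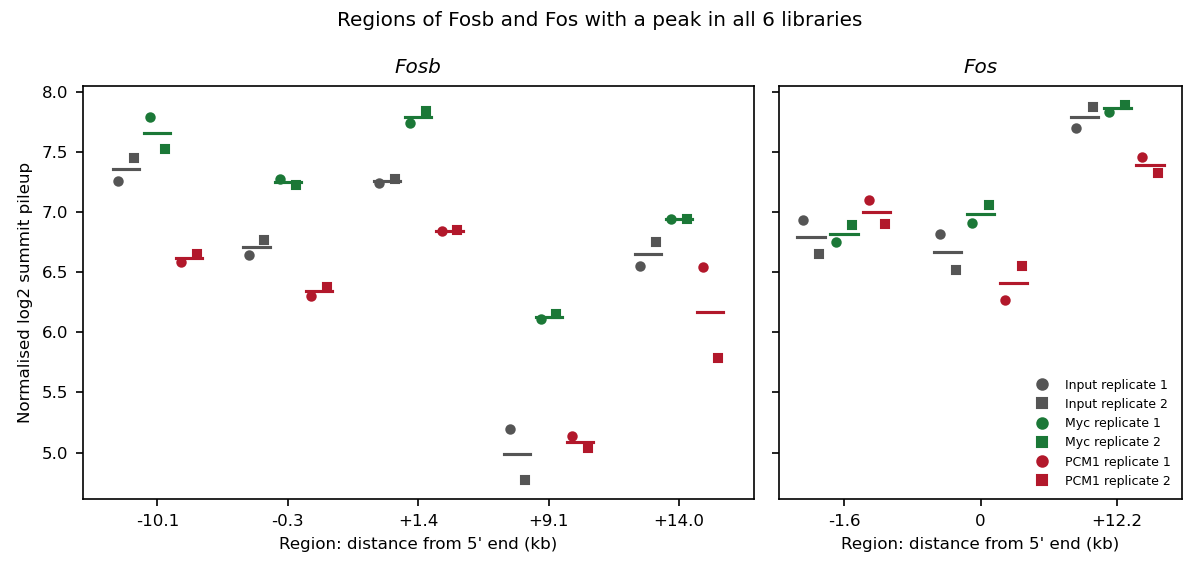
Normalised log2 summit pileup (vertical axis) of the regions of Fosb and Fos with a peak in all 6 libraries, by distance from the 5′ end in kb (horizontal axis), with 1 point per library. At Fosb −10.1 kb the PCM1 libraries sit at 6.58 and 6.65, below Input and Myc, which sit between 7.26 and 7.79.

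*Fosb* −10.1 kb had normalised log2 pileups of 7.26 and 7.45 for Input, 7.79 and 7.52 for Myc, and 6.58 and 6.65 for PCM1. PCM1 lay below Myc by −1.04 ± 0.14 (SE) on the log2 scale (adjusted p = 1.3e-06). The promoter region at −0.3 kb had 6.64 and 6.77, 7.27 and 7.22, and 6.3 and 6.38, a difference of −0.91 ± 0.16 (adjusted p = 6.01e-05). The intronic promoter at 1.4 kb had 7.24 and 7.27, 7.74 and 7.84, and 6.84 and 6.85, a difference of −0.94 ± 0.14 (adjusted p = 2.28e-06). At these 3 regions the groups did not overlap, in the order Myc, Input and PCM1. The region at 9.1 kb, near the lincRNA *Gm26802*, differed by −1.04 ± 0.26 and the region at 14 kb in the UTR of *Rtn2* by −0.77 ± 0.19.

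The *Fos* promoter had normalised log2 pileups of 6.82 and 6.52 for Input, 6.91 and 7.06 for Myc, and 6.27 and 6.55 for PCM1. Myc lay above PCM1 with Input between and overlapping the upper PCM1 value, and PCM1 minus Myc was −0.58 ± 0.17 (adjusted p = 0.011). *Fos* 12.2 kb had 7.7 and 7.87, 7.83 and 7.89, and 7.46 and 7.32, and differed by −0.47 ± 0.12 (adjusted p = 0.00317). Here PCM1 was below the other 4 libraries. *Fosl2* 19.8 kb was the largest difference among the 34 regions and was higher in PCM1, with 4.94 and 5.16 for Input, 4.04 and 4.54 for Myc, and 5.45 and 6.13 for PCM1. It was 2.84-fold higher (1.5 ± 0.3 on the log2 scale, adjusted p = 0.000256), with no overlap between the groups, at the lowest pileups of the regions named in this comparison.

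Among JUN genes, *Jun* −0.1 kb was lower in PCM1 by −0.35 ± 0.11, *Jund* by −0.26 ± 0.09, and *Junb* by −0.67 ± 0.2 at −1.4 kb and −0.49 ± 0.14 at its 5′ end (adjusted p from 0.00786 to 0.033). The *Rnaseh2a* promoter 12.6 kb from the 5′ end of *Junb* was lower by −0.56 ± 0.13. *Junb* 2.0 kb was not called, at 0.17 ± 0.13. *Atf3* −6.4 kb was lower by −0.73 ± 0.16 (adjusted p = 0.000713), whereas its internal promoter gave 0.07 ± 0.1 and was not called. *Egr1* gave −0.18 ± 0.11 at its promoter and the *Ier2* promoter −0.21 ± 0.14, neither of them called. Besides *Fosl2*, the higher regions were *Ier2* 5.9 kb (0.55 ± 0.17) and the *Fibp* promoter in the *Fosl1* window (0.68 ± 0.22).

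**Figure D4:**
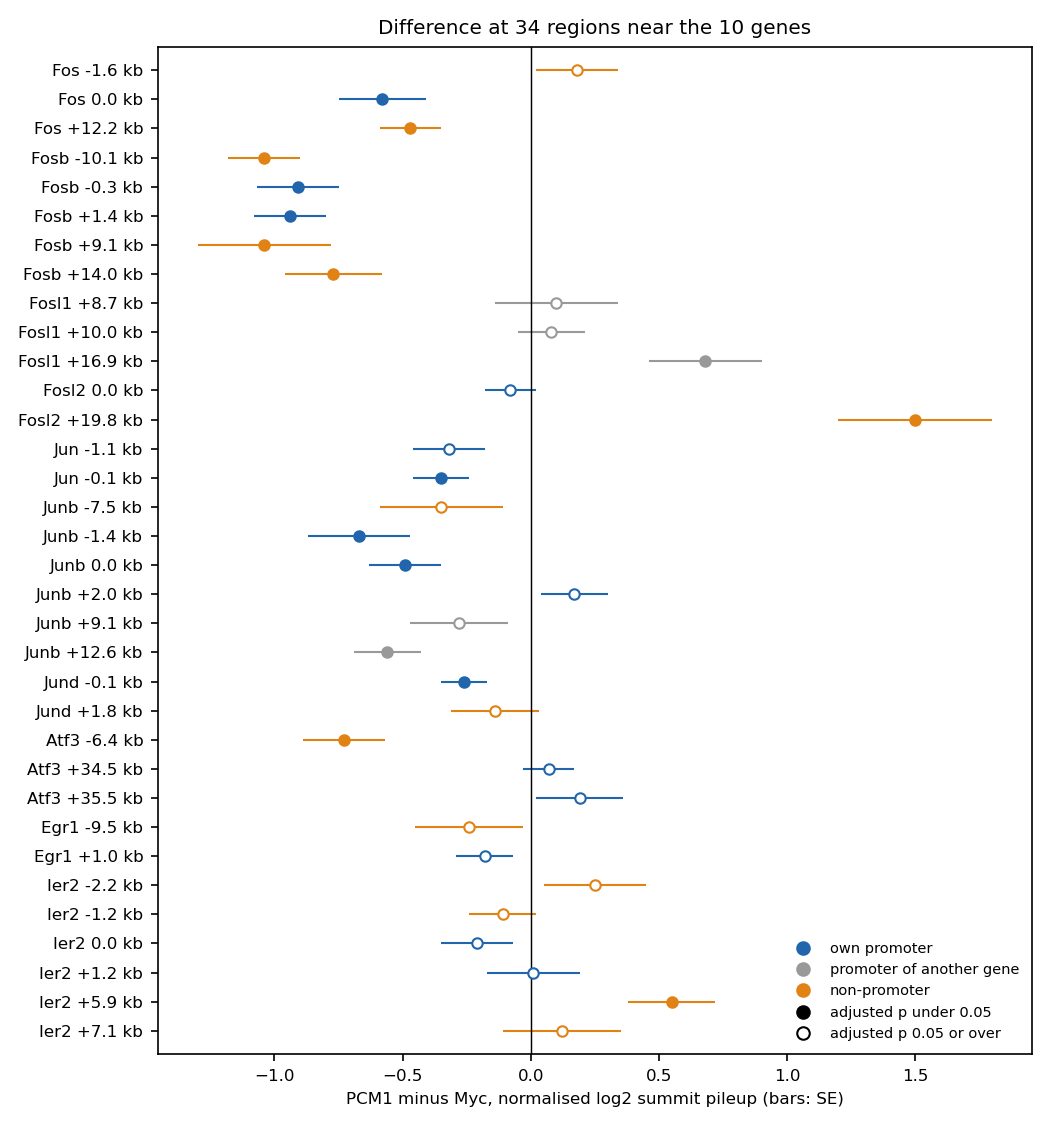
PCM1 minus Myc in normalised log2 summit pileup (horizontal axis, bars are SE) at the 34 regions near the 10 genes with a peak in all 6 libraries. The 13 regions called lower include all 5 Fosb regions among these 34, and the 3 called higher are Fosl2 19.8 kb, Fosl1 16.9 kb and Ier2 5.9 kb.

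Of these 16 calls, 7 held with each of the 6 libraries left out in turn, namely *Fos* 12.2 kb, *Fosl2* 19.8 kb, *Junb* 12.6 kb and *Fosb* −10.1, −0.3, 1.4 and 9.1 kb. *Atf3* −6.4 kb (adjusted p = 0.0618) and *Fosb* 14 kb (0.157) were lost without PCM1 replicate 2. The *Fos* promoter (up to 0.108) and *Jun* −0.1 kb (up to 0.316) were lost without Myc replicate 2 or PCM1 replicate 1. *Fosl1* 16.9 kb (up to 0.21) and *Ier2* 5.9 kb (up to 0.194) were lost without Myc replicate 1 or PCM1 replicate 1, *Junb* at its 5′ end (up to 0.0988) and at −1.4 kb (up to 0.186) without Myc replicate 1 or PCM1 replicate 2, and *Jund* (up to 0.292) without any 1 of these 4 libraries. With the deposited fold over local background in place of the pileup, 3 of the 34 regions were called, *Fosb* −10.1 kb (−0.753, adjusted p = 0.00372), *Junb* −1.4 kb (−0.727, 0.0374) and *Fosl2* 19.8 kb (1.004, 0.0301). The other 4 *Fosb* regions were then not called, at −0.127 (−0.3 kb), −0.255 (1.4 kb), −0.122 (9.1 kb) and −0.086 (14 kb). Nor were the *Fos* promoter (−0.187) and *Fos* 12.2 kb (−0.164).

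Myc and Input differ both in genotype and in antibody capture. Of the 34 regions, 12 had an unadjusted p below 0.05 between them in the same limma fit, beside 12944 of all 48857 regions. After adjustment 5 were higher in Myc and 0 lower, where 5.34% of all regions were higher and 6.88% lower. They were *Fosb* 9.1 kb (1.15 ± 0.26, adjusted p = 0.00316), *Fosb* 1.4 kb (0.54 ± 0.14, 0.00667), *Fosb* −0.3 kb (0.54 ± 0.16, 0.0247), the *Junb* 5′ end (0.46 ± 0.14, 0.0245) and *Atf3* −6.4 kb (0.5 ± 0.16, 0.0336). At *Fosb* 9.1 kb the 4 values were 5.2 and 4.77 in Input and 6.11 and 6.15 in Myc. The median difference was 0.197 over the 34 regions and 0.014 over all, while over the 34 it was 0.069 with median subtraction and −0.013 with the deposited fold. Promoter regions as a class had 12.2% higher and 4.97% lower. CM marker promoters were lower in Myc at 4 of 6 and endothelial marker promoters higher at 3 of 6, and their part in the result was not tested. The 5 calls became 2 without Input replicate 1, 0 without Input replicate 2, 2 without Myc replicate 1, 1 without Myc replicate 2 and 0 with the deposited fold. Of the calls over all regions 43.7% were higher, and 31.6% were with each library's median subtracted in place of the loess scaling, which left 3 of the 34 higher and 2 lower.

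PCM1 against Input, the comparison of antibody selection in the same genotype, gave 3 regions higher and 2 lower of the 34, where 4.06% of all regions were higher and 5.1% lower. *Fosb* −10.1 kb was lower in PCM1 by −0.74 ± 0.14 (adjusted p = 0.00099) and *Fos* 12.2 kb by −0.4 ± 0.12 (0.0331). *Junb* 2.0 kb (0.48 ± 0.13, 0.0195), *Ier2* 5.9 kb (0.56 ± 0.17, 0.0286) and *Fosl1* 16.9 kb (0.68 ± 0.22, 0.0419) were higher. The *Fos* promoter gave −0.26 ± 0.17 and *Fosb* 1.4 kb −0.4 ± 0.14, neither of them called (adjusted p = 0.366 and 0.0522). The median difference was −0.073 over the 34 regions and 0.005 over all. Over the 34 it was −0.036 without Input replicate 1, −0.118 without Input replicate 2 and 0.059, with the sign turned, without PCM1 replicate 2. The 5 calls became 2 without Input replicate 1, 0 without Input replicate 2 and 1 with the deposited fold, and without PCM1 replicate 1 there were 1 higher and 5 lower. With median subtraction there were 13 calls, 1 higher and 12 lower, and of the calls over all regions 26.1% were higher in place of 44.3%. The 3 comparisons share libraries in pairs, so their values are given side by side and are not independent.

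The 3 lists of genes around AP-1 (other zipper partners, other immediate early genes and upstream regulators) were read the same way at their strongest promoter region. Of 7 other zipper partners in the fit, 3 were lower in PCM1 than in Myc (*Batf2* by −0.52, *Maff* by −0.53 and *Mafk* by −0.87) and 0 higher, with a list median of −0.38. Of 17 other immediate early genes, 9 were lower and 1 higher, with a median of −0.41. The lower ones included the Krüppel-like factors *Klf6* (−1.23, adjusted p = 3.21e-09) and *Klf4* (−0.9), the nuclear receptor *Nr4a2* (−1.13) and *Ier5* (−0.97), and the higher one was *Nr4a3* (0.45). *Dusp1*, *Socs3* and *Klf2* were not called and lay between 0.03 and 0.08. Of 10 upstream regulators, 4 were lower, among them the SRF partners *Elk3* (−0.77), *Elk4* (−0.5) and *Mkl2* (−0.92), and 1 was higher, the kinase *Mapk3* (0.7). Not called were *Srf* itself (−0.02) and the SRF partners *Elk1* (0.1) and *Mkl1* (−0.18). These counts stand beside the 30.2% lower and 10.2% higher of all promoter regions. Against Input, Myc was higher at 2 of 7 zipper partners, 4 of 17 immediate early genes and 0 of 10 regulators and lower at 0 of each, where 12.2% of all promoter regions were higher and 4.97% lower. PCM1 was lower than Input at 1, 4 and 2 of them and higher at 0, 0 and 1, where 10.3% of all promoter regions were lower and 4.27% higher.

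The promoters most like that of *Fos* over the 6 libraries were those of *Exoc7*, *Dhps* and *Pfkfb3*, at Euclidean distances of 0.172, 0.189 and 0.193 in normalised log2 pileup. The median distance over the 13373 genes compared was 2.13. Within the 10 genes the nearest was *Fosb* at 1.569, followed by *Ier2* at 1.751. *Fosb* stood at place 4738 among all genes in this order.

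AP-1 motifs were also counted at summits over 1 kb from any transcript start, the sites where AP-1 is known to act most. Among the strongest 75336 peaks of each library, the motif lay within 100 bp of 9.43% of 55759 and 9.43% of 55213 such summits in Input (exact binomial 95% intervals from 9.19 to 9.67% and from 9.19 to 9.68%). The shares were 9.83% (9.58 to 10.1%) and 9.79% (9.55 to 10%) in Myc and 8.98% (8.74 to 9.22%) and 9.07% (8.83 to 9.31%) in PCM1. Both PCM1 libraries lay below both Input libraries, and both Myc libraries above them, by less than 1 percentage point, and the intervals of Input overlapped those of Myc and those of PCM1, while those of Myc and PCM1 did not overlap. At summits within 1 kb of a start the shares lay between 4.09 and 4.31% in all 6 libraries. Among the strongest 5000 distal summits they were 7.88 and 8.1% for Input, 8.54 and 9.18% for Myc, and 8.08 and 8.32% for PCM1. Each was below the share over all distal summits of the same library. PCM1 replicate 1 then lay between the Input values and PCM1 replicate 2 above both, so PCM1 was no longer below Input. The intervals cover counting error within a library only, and with 2 libraries per group these shares were not tested.

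**Figure D5:**
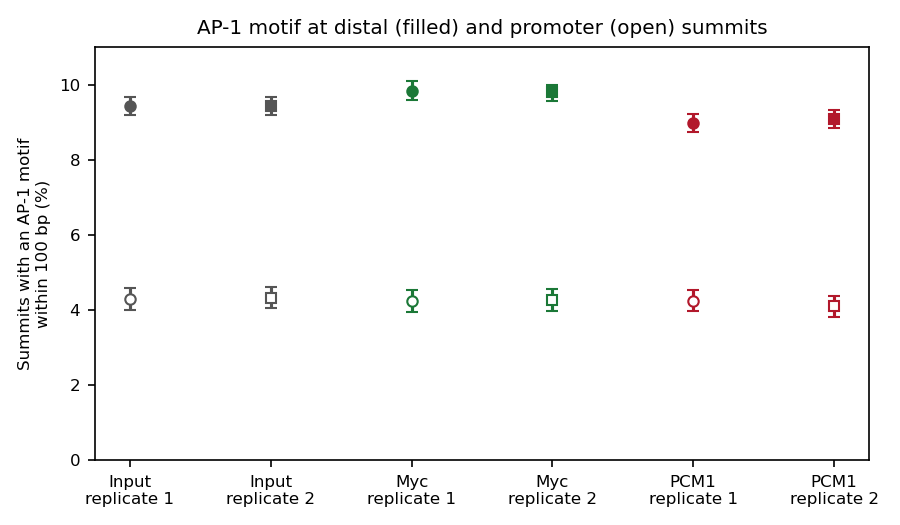
Share of summits with an AP-1 motif within 100 bp (vertical axis, percent) at distal summits (filled) and promoter summits (open) in each library, with exact 95% binomial intervals. The distal shares run from 8.98% in PCM1 replicate 1 to 9.83% in Myc replicate 1, and the promoter shares lie between 4.09 and 4.31%.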

How the data were processed

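Omni-ATAC-Seq libraries of 3 groups with 2 replicates each were processed by the authors with Bowtie2 2.3.3.1 on mm10, Picard 2.2.1, bedtools 2.7.1 and MACS2 2.1.0.20160309, keeping peaks with a q-value up to 0.05, and FastQC 0.11.5 for quality. They deposited 1 peak list per library. In it the authors give the −log10 q-value and the −log10 p-value of each summit, its fold ratio over the local background, and a score derived from the q-value. The lists hold no read counts. Summit pileups were therefore solved from the deposited fold and p-value (99.998 to 100.0% came out whole within 0.02). Pileups of regions with a peak in all 6 libraries were scaled on the log2 scale by cyclic loess and compared with limma 3.58.1 in R 4.3.3 with trend and 3 residual degrees of freedom, all libraries in 1 fit, with Benjamini-Hochberg adjustment over 48857 of 48861 such regions. The SEs and p-values rest on the spread between these replicates, which limma moderates toward its trend over all regions in the fit.

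Peaks were merged over libraries with bedtools 2.31.1 (overlap of at least 1 bp) and annotated with GENCODE M21. Other steps used Python 3.11.15, numpy 2.4.6, scipy 1.17.1, pandas 2.3.3 and matplotlib 3.10.9. Binomial intervals cover counting error only, at 95% confidence. The named genes were the 10 members, their called or single-group regions, the 3 promoters most like *Fos*, and genes of fixed pathway and marker lists. The members and lists were chosen with earlier results of these data known. Alternatives covered the normalisation, the deposited fold, a pileup minimum of 20, equal numbers of peaks, stricter q-values, other windows and leaving out each library. The fits were tested on simulated data.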

Additional observations from a re-analysis of the deposited data

How the results depend on the processing

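Labels give both replicates only a number, and deviations of same-numbered libraries correlated between −0.002 and 0.006. With the replicate number as a block, 6215, 4674 and 14227 regions were called for Myc minus Input, PCM1 minus Input and PCM1 minus Myc in place of 5969, 4475 and 14122, and 5, 6 and 16 of the 34 member regions. With the deposited fold, 64, 159 and 3532 regions and 0, 1 and 3 member regions were called, and *Jun* −0.1 kb turned from −0.352 to 0.13 in PCM1 minus Myc (adjusted p = 0.765). Median subtraction gave 13 member calls for PCM1 minus Input. Leaving out 1 library gave 1729 to 8081 regions and 0 to 7 member regions for Myc minus Input, 1046 to 4019 and 0 to 6 for PCM1 minus Input, and 8483 to 13192 and 11 to 16 for PCM1 minus Myc. It gave 1 to 4 single-group regions, where a group left with 1 library was not counted. Windows of 2 kb and 50 kb held 22 and 97 regions shared by all libraries, and 50 kb held 11 of a single group. Ranking by fold moved the promoter medians to 78.3 (Input), 72.0 (Myc) and 69.5 (PCM1), and equal numbers of peaks gave 94.4 in Myc. AP-1 shares in Input, Myc and PCM1 were 5.3, 5.71 and 5.05% within 50 bp, 9.54, 9.86 and 8.96% over all peaks, and 7.33, 7.5 and 6.98% for TGACTCA or TGAGTCA. The wider and narrower windows and motifs count more or fewer bases by construction, and for the other values the cause was not tested. Depth differed 4.39-fold, which limits what the absence of a weak peak shows.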
